A study of Mus musculus with 4 samples.

Results

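The 10 genes described here encode 4 ligands and 6 receptors of the bone morphogenetic protein (BMP) pathway, around the type I receptor that was made constitutively active in these mice. They were chosen by symbol. The ligands are *Bmp2*, *Bmp4*, *Bmp5* and *Bmp7*, the type I receptors are *Acvr1*, *Bmpr1a* and *Bmpr1b*, and the type II receptors are *Bmpr2*, *Acvr2a* and *Acvr2b*. All 10 were among the 13577 genes listed.

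The libraries were made from nasal process (NP) tissue of mouse embryos at E11.5, and their titles name 2 as control and 2 as ca-*Acvr1* mutant (mutant libraries below). By the study's methods, controls are ca-*Acvr1(A11)* +/+;*P0-Cre* and mutants are ca-*Acvr1(A11)* fl/+;*P0-Cre*, so that all 4 libraries carry *P0-Cre*, which drives recombination in neural crest cells. The A11 allele is a single transgenic line in which Cre switches on a constitutively active ACVR1 from the ubiquitous CAG promoter, and its name also lists lacZ and EGFP. The embryos were age matched by somite count on a mixed background, and how many embryos went into a library is not given in the sources used here. The genotype entries of the libraries contradict their titles: the libraries titled control are entered as carrying ca-*Acvr1(A11)* and those titled mutant as *P0-Cre* alone. The titles were followed throughout, and if the genotype entries are the correct ones every direction below is reversed. The library totals behind the CPM values were 1956831 and 2252586 reads (control replicates 1 and 2) and 2408827 and 2137027 reads (mutant replicates 1 and 2). They were found from the CPM values and need not be all reads sequenced. By these totals, 1 read equals between 0.415 and 0.511 CPM, the reads of a gene scaled to the library total. Across genes, r between replicates was 0.976 for control and 0.978 for mutant libraries.

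BMPs are secreted dimers that bind a complex of type I and type II serine/threonine kinase receptors. The type II receptor is active on its own and phosphorylates a glycine- and serine-rich stretch, the GS domain, next to the kinase of the type I receptor, which then phosphorylates SMAD1, SMAD5 and SMAD9. In the embryonic face, BMPs are made in ectoderm and mesenchyme and are known for roles in outgrowth and fusion of the facial processes. Mutations that make ACVR1 overactive are known from the human disease fibrodysplasia ossificans progressiva, in which muscle and tendon turn to bone.

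The GS stretch is shown first because it is where a type I receptor is switched on, and because it shows how far the 3 type I receptor genes differ in sequence. Each line gives the endogenous mouse coding sequence, 5′ to 3′ on the coding strand, from 5 codons before to 9 codons after a run of 6 alternating serine and glycine codons, which stands in capitals (GENCODE vM21, GRCm38, which is mm10). The transgene's own sequence was not analysed here. Whether its activating change lies within the bases shown is not given in the sources used here.
Acvr1: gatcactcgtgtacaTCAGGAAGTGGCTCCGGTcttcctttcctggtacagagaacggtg
Bmpr1a: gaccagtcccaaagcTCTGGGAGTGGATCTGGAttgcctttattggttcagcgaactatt
Bmpr1b: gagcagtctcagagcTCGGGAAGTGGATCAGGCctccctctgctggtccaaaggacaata
The *Acvr1* stretch is codons 185 to 204, in exon 8 of 13 (chr2:58474204-58474263, minus strand). The *Bmpr1a* stretch is codons 211 to 230, split between exon 8 (chr14:34429656-34429700) and exon 9 (chr14:34425124-34425138) of 13 on the minus strand. The *Bmpr1b* stretch is codons 181 to 200, split between exon 6 (chr3:141862983-141863027) and exon 7 (chr3:141857582-141857596) of 11 on the minus strand. *Bmpr1a* and *Bmpr1b* shared 42 of the 60 bases, *Acvr1* and *Bmpr1b* 39, and *Acvr1* and *Bmpr1a* 38. Over the whole coding sequence, 69.6% of aligned bases were identical between *Bmpr1a* and *Bmpr1b*, against 60.7% for *Acvr1* and *Bmpr1a* and 60.4% for *Acvr1* and *Bmpr1b*.

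The reads come from the 3′ ends of transcripts. The last 500 bases of each gene were searched against the transcripts of other genes (at least 90% identity over at least 50 bases, same strand), and 9 of the 10 genes had no match. The exception was *Bmp4*, of which 147 of these bases lie in stretches shared with 751 other genes, *Bmp7* among them. The last 500 bases of *Bmp7* itself had no match. At the last exon, *Bmp4*, *Bmp5* and *Acvr2a* overlap a gene on the opposite strand (*Gm15217*, *Gm26903* and *Orc4*), and whether the counting used strand is not given in the sources used here. All 40 values of the 10 genes were whole reads, within 0.02 reads.

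The question for each gene was whether its RNA differed between control and ca-*Acvr1(A11)* NP tissue. None of the 10 genes passed the test: with limma on log2(CPM + 1), adjusted p ran from 0.472 to 0.988 at a threshold of 0.05, where 0.899% of the 12462 genes tested passed (112 genes), 0.305% as higher and 0.594% as lower. At an unadjusted p under 0.05 there was 1 of the 10, *Bmpr1b*, against 9.55% of all genes. edgeR's quasi-likelihood test on the reads tested 9 of them (*Bmp5* was below its filter), called 0 and had 1 at an unadjusted p under 0.05, against 1.31% and 10% of all genes. limma-voom gave the same counts, 0 and 1 of 9, against 1.24% and 10.2%. DESeq2 gave 0 and 0 of 10, against 0.287% and 2.65% of the 13577 genes listed. It gave *Bmp5* no adjusted p. The log2 fold changes, ca-*Acvr1(A11)* over control, were above 0 for 5 genes and below 0 for 5. Their median was -0.03 (all genes tested 0.03), and the median of their absolute values was 0.27 (all genes tested 0.20). The genes called had absolute log2 fold changes of 0.56 and more, and the largest among the 10 genes was 0.54 with this pseudocount of 1 CPM. With 0.1 CPM the largest was that of *Bmp5*, -0.84.

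In 6 of the 10 genes the groups did not overlap, which was so for 38.8% of all genes tested. Of the 6, *Bmp2*, *Bmp4* and *Acvr2b* were higher in both mutant libraries (background 21.9%) and *Bmp5*, *Bmpr1a* and *Bmpr1b* were lower (background 16.8%). For *Bmp5* the order rests on the library totals, since control replicate 1 and both mutant libraries held 2 reads each, under the floor of 3 reads. With 2 libraries against 2, an exact permutation test of a single value cannot give a p below 0.333.

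**Figure D1:**
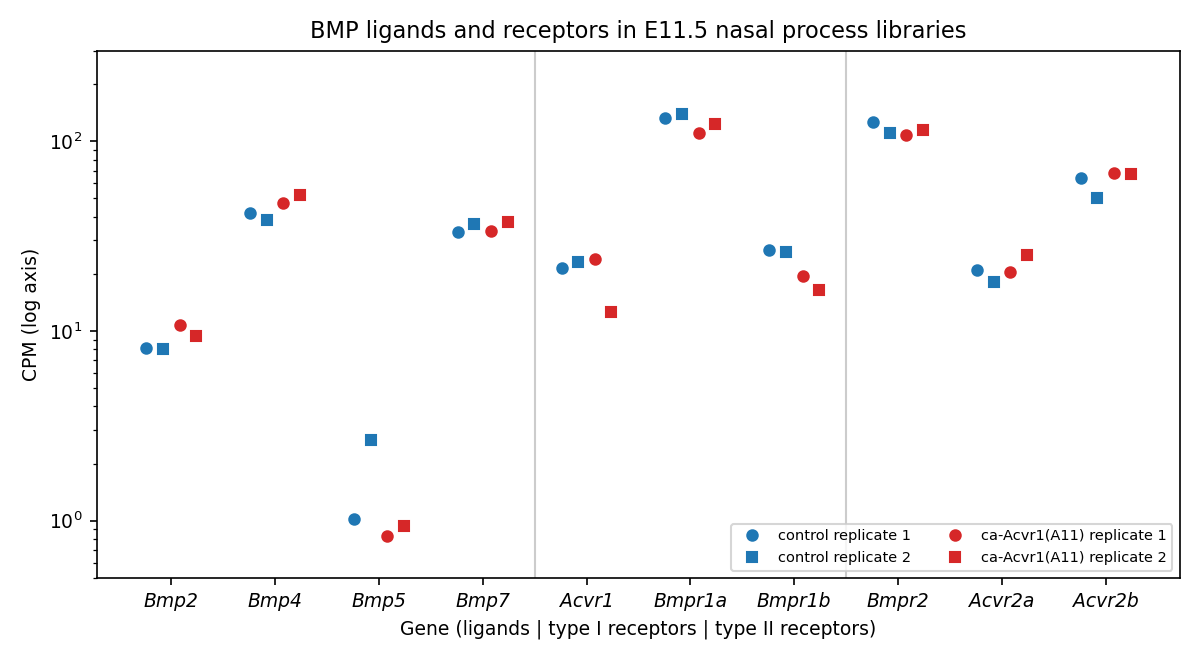
CPM of each gene in the 4 libraries, on a log axis, with control libraries in blue, mutant libraries (ca-*Acvr1(A11)*) in red, and circles and squares for replicates 1 and 2. *Bmpr1a* and *Bmpr2* lie above 100 CPM in every library, *Bmp5* stays below 3 CPM, and the widest gap between replicates of a well-counted gene is that of *Acvr1* in mutant libraries.

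Among the ligands, *Bmp4* had the highest CPM, and the effect of the 3′ bases it shares with other genes was not tested. *Bmp4* (Entrez 12159, chr14:46383520-46390669, minus strand) encodes a BMP that is expressed in facial ectoderm and in the mesenchyme below it. It measured 41.9 and 38.6 CPM in the control libraries and 47.3 and 51.9 CPM in the mutant libraries (82, 87, 114 and 111 reads). Both mutant values lay above both control values. The group means were 40.3 ± 2.32 and 49.6 ± 3.26 CPM (SD, n = 2 each), and the log2 fold change was 0.29 ± 0.19 (SE, 95% interval -0.09 to 0.68, limma, adjusted p = 0.688).

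*Bmp2* (Entrez 12156, chr2:133552159-133562885, plus strand), the closest relative of *Bmp4* among these ligands, measured 8.18 and 7.99 CPM in the control libraries and 10.8 and 9.36 CPM in the mutant libraries. These values rest on 16, 18, 26 and 20 reads, and the groups did not overlap. The log2 fold change was 0.28 ± 0.33 (SE, 95% interval -0.39 to 0.95, limma, adjusted p = 0.863). The interval covers folds from 0.766 to 1.93.

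*Bmp7* (Entrez 12162, chr2:172868012-172940321, minus strand) encodes a ligand of another BMP subgroup, to which BMP5 also belongs. It measured 33.2 and 36.8 CPM in the control libraries and 33.6 and 37.4 CPM in the mutant libraries (65, 83, 81 and 80 reads). The groups overlapped, and the difference was the smallest of the 10 genes. The log2 fold change was 0.02 ± 0.20 (SE, 95% interval -0.40 to 0.44, limma, adjusted p = 0.988), and its sign turned under TMM and upper-quartile scaling and with edgeR, DESeq2 and limma-voom.

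*Bmp5* (Entrez 12160, chr9:75775364-75900310, plus strand) was near the limit of these libraries. It had 2 and 6 reads in control and 2 and 2 reads in mutant libraries, or 1.02, 2.66, 0.830 and 0.936 CPM, where a floor of 3 reads stands at 1.25 to 1.53 CPM. Control replicate 2 held 6 of the 8 control reads. Summed over each group there were 8 and 4 reads, a ratio of 0.463 relative to the library totals, with an exact 95% counting interval of 0.102 to 1.73. The fitted log2 fold change was -0.53 ± 0.53 (SE, 95% interval -1.62 to 0.56, limma, adjusted p = 0.838), and it was -0.84 with a pseudocount of 0.1 CPM, -1.10 with DESeq2 and -1.09 with edgeR without a filter. Leaving out control replicate 1 gave -0.96, and leaving out control replicate 2 gave -0.10.

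**Figure D2:**
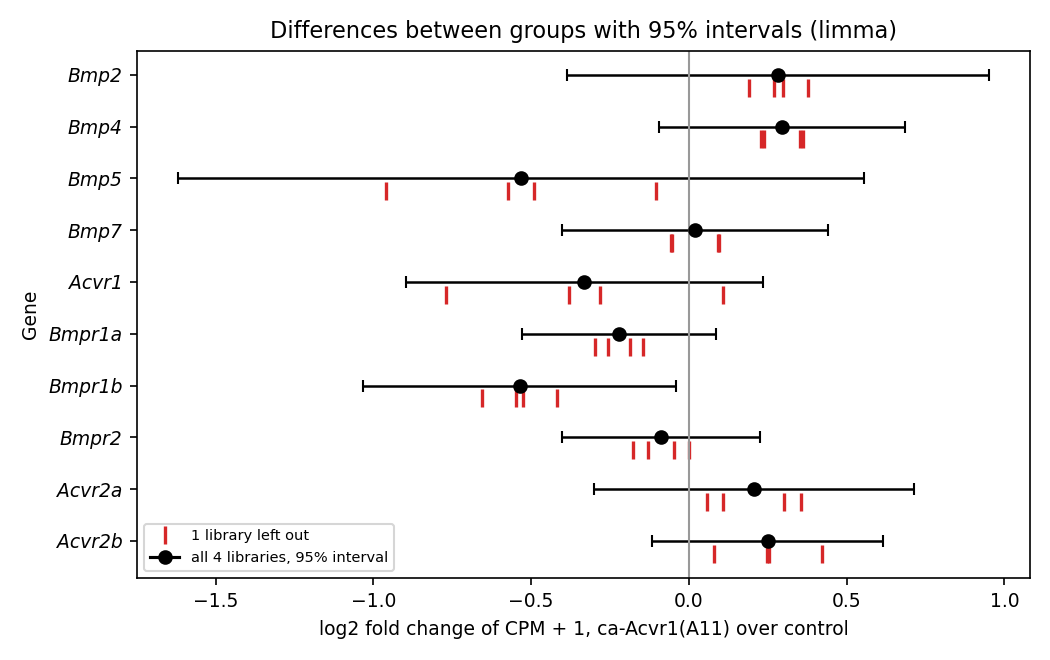
Log2 fold change of each gene, ca-*Acvr1(A11)* over control, with its 95% interval from limma on log2(CPM + 1), and below it, as red ticks, the values obtained when each library in turn was left out. The interval of *Bmpr1b*, from -1.03 to -0.04, is the only one that leaves out 0, and the values of *Acvr1* lie on both sides of 0 when libraries are left out.

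Among the type I receptors, *Acvr1* is the gene whose activated form the transgene carries. *Acvr1* (Entrez 11477, chr2:58388644-58567157, minus strand), also known as *Alk2*, measured 21.5 and 23.1 CPM in the control libraries and 24.1 and 12.6 CPM in the mutant libraries (42, 52, 58 and 27 reads). The mutant libraries held both the highest and the lowest value, on either side of the controls. The means were 22.3 ± 1.15 and 18.4 ± 8.09 CPM (SD, n = 2 each), and the log2 fold change was -0.33 ± 0.28 (SE, 95% interval -0.90 to 0.24, limma, adjusted p = 0.786). Without mutant replicate 2 it was 0.11, and without mutant replicate 1 it was -0.77. These reads are counted near the 3′ end of the endogenous gene, and whether the transcript of the transgene carries that end is not given in the sources used here, so the *Acvr1* values do not check the labels.

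*Bmpr1a* (Entrez 12166, chr14:34410734-34503341, minus strand), also known as *Alk3*, encodes the type I receptor for BMP2 and BMP4 that is found in most embryonic tissues. It measured 132.9 and 139.4 CPM in the control libraries and 110.4 and 123.1 CPM in the mutant libraries (260, 314, 266 and 263 reads). Both mutant values lay below both control values. The log2 fold change was -0.22 ± 0.15 (SE, 95% interval -0.53 to 0.09, limma, adjusted p = 0.709).

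*Bmpr1b* (Entrez 12167, chr3:141837136-142169425, minus strand), also known as *Alk6* and best known from early cartilage, had the largest absolute log2 fold change of the 9 genes with more than 6 reads in a library. It measured 26.6 and 26.2 CPM in the control libraries and 19.5 and 16.4 CPM in the mutant libraries (52, 59, 47 and 35 reads). The control libraries were close to each other, and both mutant libraries lay below them. The means were 26.4 ± 0.270 and 17.9 ± 2.22 CPM (SD, n = 2 each), and the log2 fold change was -0.54 ± 0.24 (SE, 95% interval -1.03 to -0.04), or 0.689-fold with an interval of 0.489 to 0.973. Its unadjusted p was 0.0353 with limma, 0.0290 with edgeR, 0.0315 with limma-voom and 0.144 with DESeq2, and none of these passed after adjustment over all genes (adjusted p = 0.472, 0.415, 0.415 and 1.00). With limma and single libraries left out, its unadjusted p ran from 0.0390 to 0.180 and was under 0.05 in 1 of 4 cases.

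In bulk tissue, fewer cells of a type and less RNA per cell cannot be told apart, and markers of cell types differed between the groups. The 11 cranial neural crest mesenchyme markers summed to 1653 and 2014 CPM in the control and to 1026 and 1077 CPM in the mutant libraries, and 8 of the 11, *Prrx1*, *Prrx2*, *Twist1*, *Col1a1* and *Col3a1* among them, were called lower by limma (0.594% of all genes). The 11 epithelium markers summed to 299.0 and 268.6 CPM against 473.7 and 431.0 CPM, and 3 of the 11 (*Epcam*, *Cdh1* and *Perp*) were called higher (0.305% of all genes). Neural markers (10 genes, 0 called) summed to 1468 and 1413 CPM against 1847 and 1940 CPM, and macrophage markers (7 genes, 0 called) to 27.1 and 28.4 CPM against 37.8 and 59.4 CPM. Endothelium markers summed to between 162.8 and 176.4 CPM in the 4 libraries, with 0 of 8 called, erythroid markers to between 6694 and 8468 CPM, with 0 of 5 called, and muscle markers to between 8.69 and 11.2 CPM, with 0 of 4 called. Of the 9 erythroid and 6 muscle markers on these lists, 5 and 4 were among the genes listed, and every marker of the other lists was. The part of these differences in the values of the BMP ligands and receptors was not tested.

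**Figure D3:**
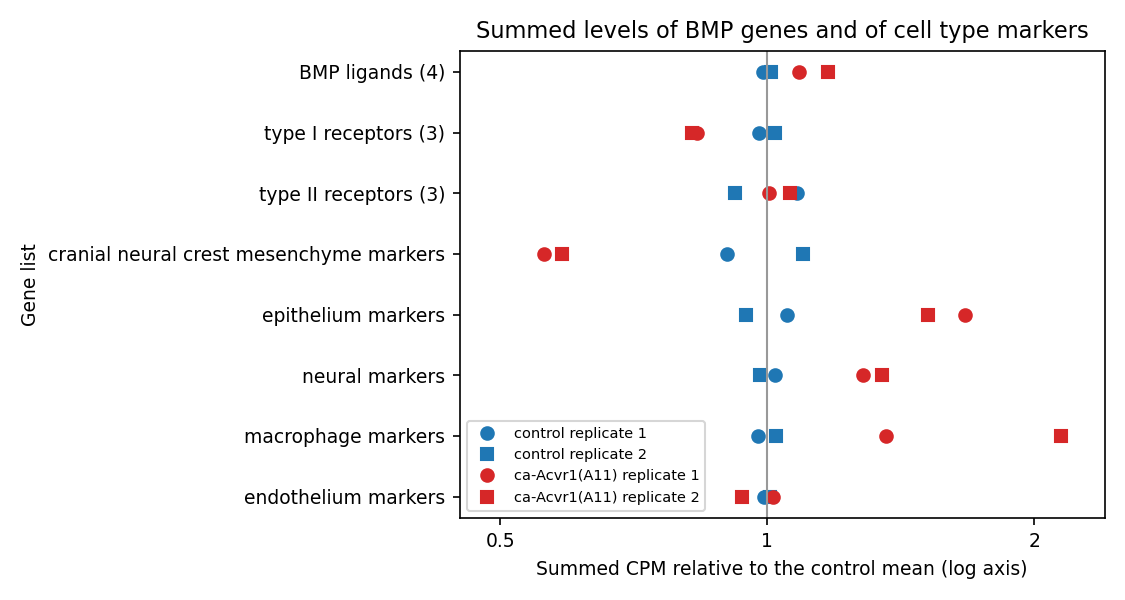
Summed CPM of the ligands, type I receptors, type II receptors and 5 marker lists in each library (control blue, mutant red), divided by the mean of the control libraries, on a log axis. The neural crest mesenchyme markers in mutant libraries stand at 0.573 of the control mean and the epithelium markers at 1.59, and the type I receptors at 0.828 and the ligands at 1.13.

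Among the type II receptors, *Bmpr2* was the most abundant. *Bmpr2* (Entrez 12168, chr1:59763400-59879014, plus strand), which encodes the type II receptor that binds BMPs and not activins, measured 125.7 and 111.0 CPM in the control libraries and 107.9 and 114.2 CPM in the mutant libraries (246, 250, 260 and 244 reads). The groups overlapped. The log2 fold change was -0.09 ± 0.15 (SE, 95% interval -0.40 to 0.23, limma, adjusted p = 0.920).

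*Acvr2a* (Entrez 11480, chr2:48814109-48903269, plus strand) and *Acvr2b* encode receptors that activins and BMPs share. *Acvr2a* measured 21.0 and 18.2 CPM in the control libraries and 20.3 and 25.3 CPM in the mutant libraries (41, 41, 49 and 54 reads). The groups overlapped, with a log2 fold change of 0.21 ± 0.25 (SE, 95% interval -0.30 to 0.71, limma, adjusted p = 0.869). It was 0.06 without mutant replicate 2 and 0.36 without mutant replicate 1.

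*Acvr2b* (Entrez 11481, chr9:119402118-119434995, plus strand) measured 63.9 and 50.2 CPM in the control libraries and 67.7 and 67.4 CPM in the mutant libraries (125, 113, 163 and 144 reads). The mutant libraries were nearly equal and above both controls, which differed more from each other. The log2 fold change was 0.25 ± 0.18 (SE, 95% interval -0.12 to 0.62, limma, adjusted p = 0.726). Leaving out control replicate 1 gave 0.42, and leaving out control replicate 2 gave 0.08.

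Summed by class, the ligands measured 84.3 and 86.1 CPM in the control libraries and 92.6 and 99.7 CPM in the mutant libraries, a ratio of the means of 1.13 with no overlap. The type I receptors summed to 180.9 and 188.7 CPM against 154.0 and 152.1 CPM, a ratio of 0.828, also with no overlap. The type II receptors summed to 210.5 and 179.3 CPM against 195.9 and 206.8 CPM, a ratio of 1.03 with overlapping groups. When each library in turn was left out, the log2 ratio ran from 0.12 to 0.23 for the ligands, from -0.30 to -0.24 for the type I receptors and from -0.06 to 0.17 for the type II receptors. The ligand sum per type I receptor sum was 0.466 and 0.456 in control and 0.601 and 0.655 in mutant libraries, and the type II sum per type I sum was 1.16 and 0.951 against 1.27 and 1.36. Within the type I sum the mutant replicates differed in opposite directions. Replicate 1 was above replicate 2 for *Acvr1* (24.1 and 12.6 CPM) and *Bmpr1b* (19.5 and 16.4 CPM). It was below replicate 2 for *Bmpr1a* (110.4 and 123.1 CPM). These sums were compared without a test and without a background share for the lack of overlap.

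**Figure D4:**
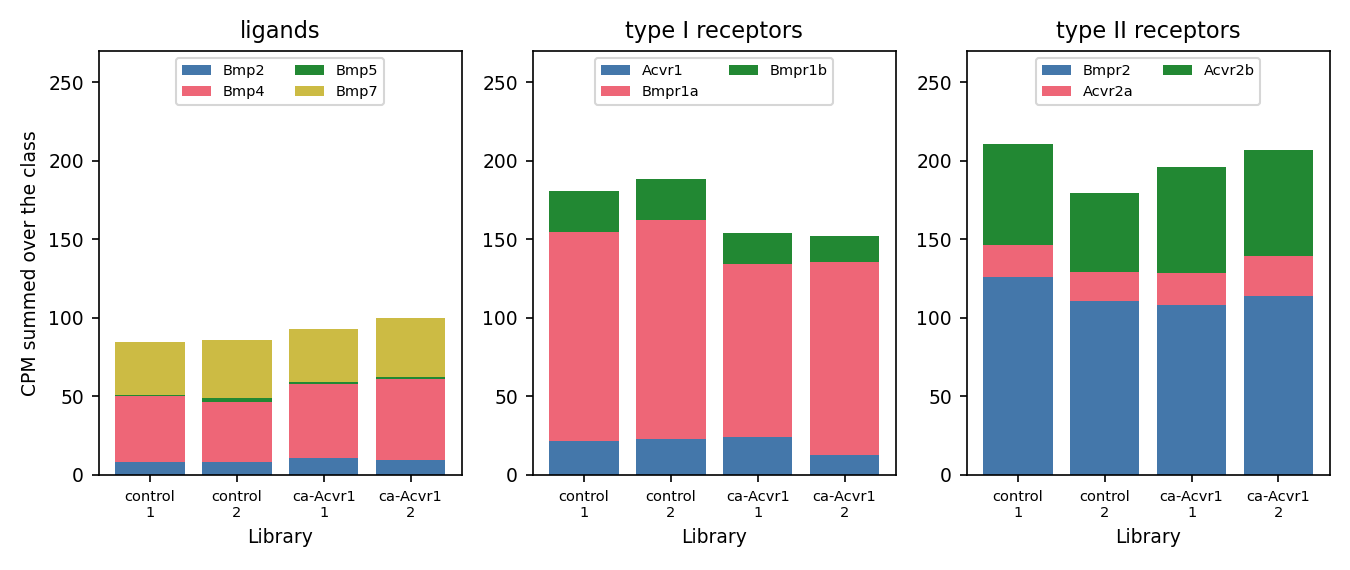
Summed CPM of the 4 ligands, the 3 type I receptors and the 3 type II receptors in each library, as bars stacked by gene, with mutant libraries marked ca-*Acvr1*. *Bmpr1a* makes up most of the type I sum in every library, *Bmpr2* most of the type II sum, and *Bmp4* with *Bmp7* most of the ligand sum.

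Within each class the same gene led in every library. *Bmpr1a* held 73.4% of the type I receptor reads in control replicate 1 (95% Wilson interval 68.6 to 77.8) and 73.9% in control replicate 2 (69.5 to 77.8), and 71.7% (66.9 to 76.0) and 80.9% (76.3 to 84.8) in mutant replicates 1 and 2. *Acvr1* held 11.9% (8.90 to 15.6) and 12.2% (9.45 to 15.7) in control, and 15.6% (12.3 to 19.7) and 8.31% (5.77 to 11.8) in mutant libraries. The intervals of the mutant replicates did not overlap for *Acvr1*, nor for *Bmpr1a*, while each overlapped those of both controls. Shares within a class depend on each other. *Bmp4* held between 44.8% and 52.1% of the ligand reads and *Bmp7* between 36.3% and 42.8%. *Bmpr2* held 59.7% and 61.9% of the type II receptor reads in control and 55.1% and 55.2% in mutant libraries, with *Acvr2b* at 30.3% and 28.0% against 34.5% and 32.6%.

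The genes covered a wide range of levels. In 3′ libraries the reads of a gene do not grow with the length of its transcript, so CPM can be compared between genes. Differences in how well each 3′ end is captured limit this, as do the bases that *Bmp4* shares with other genes. By mean CPM over the 4 libraries the order was *Bmpr1a* (126.4), *Bmpr2* (114.7), *Acvr2b* (62.3), *Bmp4* (44.9), *Bmp7* (35.3), *Bmpr1b* (22.2), *Acvr2a* (21.2), *Acvr1* (20.3), *Bmp2* (9.08) and *Bmp5* (1.36). The ranges of *Bmpr1a* and *Bmpr2* overlapped, as did those of *Acvr2b* and *Bmp4*, although in each pair the first was higher in 4 of 4 libraries. *Bmpr1b*, *Acvr2a* and *Acvr1* also overlapped and changed order between libraries, so that these 3 could not be ranked. The other neighbors in this order did not overlap. *Bmpr1a* was higher than 87.7% of the listed genes and *Bmp5* than 11.8%.

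Replicates of a group were compared read by read. Of the 20 pairs (10 genes in 2 groups), 1 had an exact binomial 95% interval of the replicate ratio that left out 1. This was *Acvr1* in mutant libraries, where replicate 1 was 1.91 times replicate 2 (1.19 to 3.13), against 0.930 (0.604 to 1.42) for control replicate 1 over control replicate 2. *Acvr2b* in control libraries came next to that limit, with a ratio of 1.27 (0.979 to 1.66). These intervals cover counting error only. Up to about 1 of 20 such 95% intervals would leave out 1 if the replicates differed by counting error alone. The share over all genes is not reported here.

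**Figure D5:**
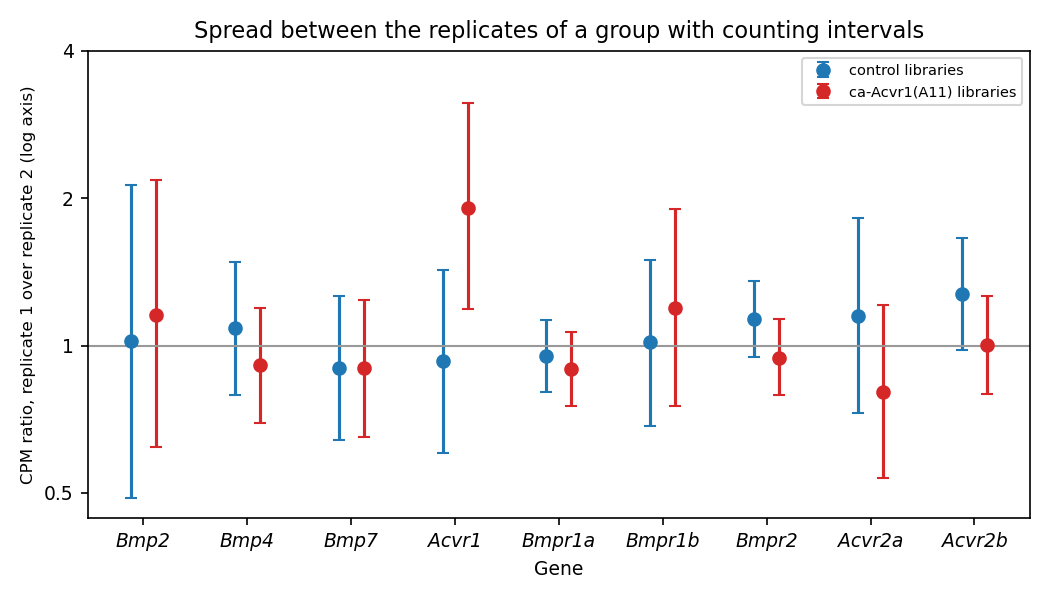
Ratio of replicate 1 to replicate 2 for each gene within control and within mutant libraries, in CPM, on a log axis with exact binomial 95% intervals. The interval of *Acvr1* in mutant libraries, from 1.19 to 3.13, lies above 1, and the other intervals drawn include 1. *Bmp5*, with 2 to 6 reads, is not drawn.

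Other genes of the pathway were counted by list, with limma and the same threshold. Of 22 other BMP and GDF ligands, 10 were listed and 7 tested, and 0 were called. Their median log2 fold change was -0.16, and the most abundant was *Gdf11*, a ligand for activin receptors, with 15.3 and 6.66 CPM in the control libraries and 7.89 and 10.3 CPM in the mutant libraries (log2 fold change -0.16, adjusted p = 0.944). Of 15 other receptors and co-receptors of the TGF-beta family, 12 were tested and 0 called, with a median of 0.12. The most abundant was *Fkbp1a*, which encodes a protein that binds the GS domain of type I receptors and holds them inactive. It was at 214.6 and 217.5 CPM against 214.6 and 212.4 CPM (log2 fold change -0.02, adjusted p = 0.987).

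Of 21 secreted antagonists and modulators, 15 were tested and 0 called, with a median of -0.11. *Fstl1*, which encodes a secreted glycoprotein of mesenchyme, was the most abundant, at 198.3 and 250.8 CPM against 139.1 and 163.8 CPM (log2 fold change -0.56, adjusted p = 0.0851). Its groups did not overlap, as was so for 38.8% of all genes tested. All 10 SMADs and SMURFs were tested and 0 were called, with a median of -0.09. The most abundant was *Smad5*, one of the SMADs that type I BMP receptors phosphorylate, at 333.2 and 284.1 CPM against 254.5 and 269.5 CPM (log2 fold change -0.23, adjusted p = 0.655). The *Smad5* groups did not overlap either. All 14 BMP-SMAD targets were tested and 0 were called, with a median of -0.33, and 3 were higher and 6 lower at an unadjusted p under 0.05, against 9.55% of all genes in either direction. *Id2*, which encodes an inhibitor of basic helix-loop-helix factors, was the most abundant of them, at 406.3 and 713.8 CPM against 323.4 and 406.6 CPM (log2 fold change -0.57, adjusted p = 0.187). Control replicate 1 lay just below mutant replicate 2, so that the *Id2* groups overlapped. Some of these targets (*Smad6*, *Smad7*, *Smad9*, *Bambi* and *Nog*) also stand in another of the lists, and *Msx1* is also a neural crest mesenchyme marker.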

How the data were processed

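NP tissue of E11.5 embryos was lysed in TRIzol, and QuantSeq 3′ libraries were sequenced on a HiSeq platform by the authors. The labels list STAR, featureCounts 1.6.4, DESeq2 and the build mm10 among the tools and builds, without their roles. The authors deposited CPM values per gene, scaled to the library totals, for 13577 genes in 4 libraries. The table also has 33470 empty lines. Library totals were found from the smallest step between values, and 99.92% of the values were whole reads (within 0.02 reads), while 43 values in 22 genes, none of them of the 10 genes, were not. CPM is relative, so a change in abundant genes moves all others.

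The main test was limma 3.58.1 (R 4.3.3) on log2(CPM + 1) with a trend. It covered 12462 genes, those whose mean exceeded 1 CPM, and p-values were adjusted over all of them by Benjamini-Hochberg. A fold change on this scale understates that of genes with few reads. The recovered reads went to edgeR 4.0.16 (quasi-likelihood), DESeq2 1.42.0 and limma-voom. Other alternatives were a pseudocount of 0.1 CPM, no filter, a mean above 5 CPM, TMM and upper-quartile scaling, edgeR without a filter, a block for the replicate number, nearest whole-read values, and leaving out each library. Python 3.11.15 with numpy 2.4.6, pandas 2.3.3, scipy 1.17.1 and matplotlib 3.10.9 was used. The fits were also run on simulated data, and the outcome is not reported here. Binomial and Poisson intervals and the floor of 3 reads cover counting error only, since reads without molecular identifiers are not independent molecules. Nothing given says that the replicates are separate embryos or litters, so p-values measure the spread between these samples, which may be technical.

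Coordinates and sequences came from GENCODE vM21 on GRCm38, which holds 99.26% of the symbols listed. The genes named were the 10 members and, from each pathway list, the most abundant gene and any gene called. For the marker lists, examples of the genes called are named, and not every gene called is reported here. The members and lists were chosen with earlier results of these data known. Protein sequences were not used here.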

Additional observations from a re-analysis of the deposited data

How the results depend on the processing

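None of the 10 genes was called under any of the alternatives run, leaving out single libraries included. The log2 fold change of *Bmp7*, 0.02 with limma, turned to -0.0096 under TMM scaling, -0.0196 under upper-quartile scaling, -0.0024 with edgeR, -0.015 with edgeR without a filter, -0.012 with DESeq2 and -0.0045 with limma-voom, and ran from -0.0556 to 0.0950 when single libraries were left out. That of *Acvr1* ran from -0.77 to 0.11, the latter without mutant replicate 2, and that of *Bmpr2* from -0.18 to 0.00038, the latter without control replicate 1. *Bmpr1b* ran from -0.66 to -0.42 without single libraries, and its adjusted p from 0.371 to 1.00 over all alternatives. The type I receptor sum had a log2 ratio of -0.31 under upper-quartile scaling, against -0.27. The number of all genes called, 112 (38 higher, 74 lower), was 39 with DESeq2 (8 higher, 31 lower) and ran from 94 to 462 when single libraries were left out, with 462 without control replicate 1 (241 higher, 221 lower). With a block for the replicate number it was 229 (97 higher, 132 lower), and the block changed no call of the 10 genes. Differences of libraries with the same number correlated with r = 0.067, and nothing in the labels says that a number pairs libraries. *Bmp5* has no value with a mean above 5 CPM, edgeR with its filter or limma-voom, and no adjusted p with DESeq2. The cause of these changes was not tested. Standard errors of 0.15 to 0.53 on the log2 scale limit what these libraries can show.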

Other observations

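*Gdf6*, which encodes a BMP-related ligand, and *Nog* and *Nbl1*, which encode secreted BMP antagonists, are named here after their values were seen, as examples. *Mstn* and *Acvr1c*, from the lists of other ligands and other receptors, had larger absolute log2 fold changes (-1.57 and 1.25, limma, adjusted p = 0.252 and 0.308). *Gdf6* measured 9.20 and 14.2 CPM in the control libraries and 4.15 and 5.15 CPM in the mutant libraries. Its log2 fold change was -1.15 ± 0.36 (SE; limma, adjusted p = 0.181). *Nog* measured 18.4 and 19.5 CPM in the control libraries and 29.1 and 29.5 CPM in the mutant libraries. Its log2 fold change was 0.60 ± 0.23 (SE; limma, adjusted p = 0.354). *Nbl1* measured 31.2 and 43.1 CPM in the control libraries and 13.7 and 22.9 CPM in the mutant libraries. Its log2 fold change was -1.01 ± 0.25 (SE; limma, adjusted p = 0.0537). The groups did not overlap for any of these genes, as for 38.8% of all genes tested, and none passed the test after adjustment over all genes.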
